A study of Homo sapiens with 6 samples.

Results

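LOX and ITGA3 are a pair of genes tied to the extracellular matrix whose H3K9me3 peaks were followed across 3 peak lists from PC-3 cells. The peaks were those that overlapped LOX (chromosome 5, 121398890 to 121414055) or ITGA3 (chromosome 17, 48133332 to 48167849), each with 2 kb added on both sides, on hg19. They numbered 4 of 2826 peaks in all lists together. LOX held 1 peak in each list, and ITGA3 held 1 peak in the 6 h list and none in the control and 24 h lists. Both genes had been picked with their peak values known, so those values are given as a description, with no test.

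PC-3 is an established prostate adenocarcinoma line from a bone metastasis. All cells were starved of serum for 24 h, then either left untreated (control) or exposed to TGF-β1 at 5 ng/mL for 6 h or 24 h, and chromatin was immunoprecipitated (ChIP) with an antibody to H3K9me3. Each condition had 1 ChIP library and 1 input library, and the control list held 1334 peaks, the 6 h list 1220 and the 24 h list 272. With 1 library per condition there was no replicate error to set a difference against, and no p-value between conditions is given.

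H3K9me3 is trimethylation of lysine 9 of histone H3, a mark laid down by methyltransferases such as SUV39H1 and SETDB1 and read by HP1 proteins, and it is typical of silent heterochromatin at satellites and other repeats. TGF-β1 signals through its receptors to SMAD transcription factors, and in epithelial cancer cells it is known for driving production and remodelling of the matrix. LOX encodes lysyl oxidase, a secreted copper enzyme that starts the crosslinking of collagen and elastin. ITGA3 encodes integrin α3, a membrane subunit that pairs with integrin β1 as a receptor for laminins, so that it binds matrix but is not part of it. Peak lists hold no transcript levels, so the labels of these genes as TGF-β genes could not be checked in these cells.

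The LOX peaks lay inside the gene, close to its 5′ end. LOX runs on the minus strand, and RefSeq lists 3 starts for it, of which 2 lie farther in, 1036 and 1085 bases downstream of the first. The windows of 300 bases around starts 1 and 2 are shown because the peaks fell in the first part of the gene. They are RefSeq sequences on GRCh38.p14, each with 250 bases before the start and 50 from it, read on the strand of the gene. Capitals mark CAGAC and its reverse complement GTCTG, the short box that SMAD proteins can bind.

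LOX start 1: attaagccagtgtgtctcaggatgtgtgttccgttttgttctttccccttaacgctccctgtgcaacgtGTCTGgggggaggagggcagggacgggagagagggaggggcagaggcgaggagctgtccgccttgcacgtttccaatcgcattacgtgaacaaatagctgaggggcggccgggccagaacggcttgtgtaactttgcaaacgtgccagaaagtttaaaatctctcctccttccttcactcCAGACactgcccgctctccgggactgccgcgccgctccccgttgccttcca

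LOX start 2: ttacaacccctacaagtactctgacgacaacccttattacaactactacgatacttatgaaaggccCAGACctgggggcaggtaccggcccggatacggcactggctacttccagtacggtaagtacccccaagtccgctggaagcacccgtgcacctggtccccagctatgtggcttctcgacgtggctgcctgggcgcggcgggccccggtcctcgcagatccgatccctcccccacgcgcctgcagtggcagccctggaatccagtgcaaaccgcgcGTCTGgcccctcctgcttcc

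Each window held the box once on each strand. At least 1 copy on either strand was present in 45.3% of the 35116 promoter windows of the same length in the table, so the box is common and its presence is a description only. The GC content was 58.0% around start 1 and 62.3% around start 2, against a median of 58.7% over all windows. CpG dinucleotides numbered 19 and 21, against a median of 14. The window of the start farthest in, not printed, shared 251 bases with that of start 2. The genome of the peak lists (hg19) was not at hand, so these windows were not placed on the peaks, and exons, introns and untranslated regions were not assigned. By distance, the window of start 1 ends 50 bases past that start. The LOX peaks began 881 bases or more from the 5′ end of the gene interval on hg19.

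At LOX the widest peak was that of the 6 h list, and the peaks of the other lists lay inside it. The control peak ran from 121412659 to 121413174 (516 bp), the 6 h peak from 121412506 to 121413174 (669 bp) and the 24 h peak from 121412980 to 121413172 (193 bp). On the side facing the 5′ end of the gene the edges lay within 2 bp of each other in all lists. On the other side the 6 h peak reached 153 bp farther into the gene than the control peak, which reached 321 bp farther than the 24 h peak. Counted from the 5′ end of the gene interval, the control summit lay 1054 bases into the gene, the 6 h summit 1100 and the 24 h summit 1014, or 7.0%, 7.3% and 6.7% of the way along it. The outermost summits were 86 bp apart. No peak of any list touched the 5′ end of LOX itself, and the nearest edge was 881 bases from it.

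**Figure D1:**
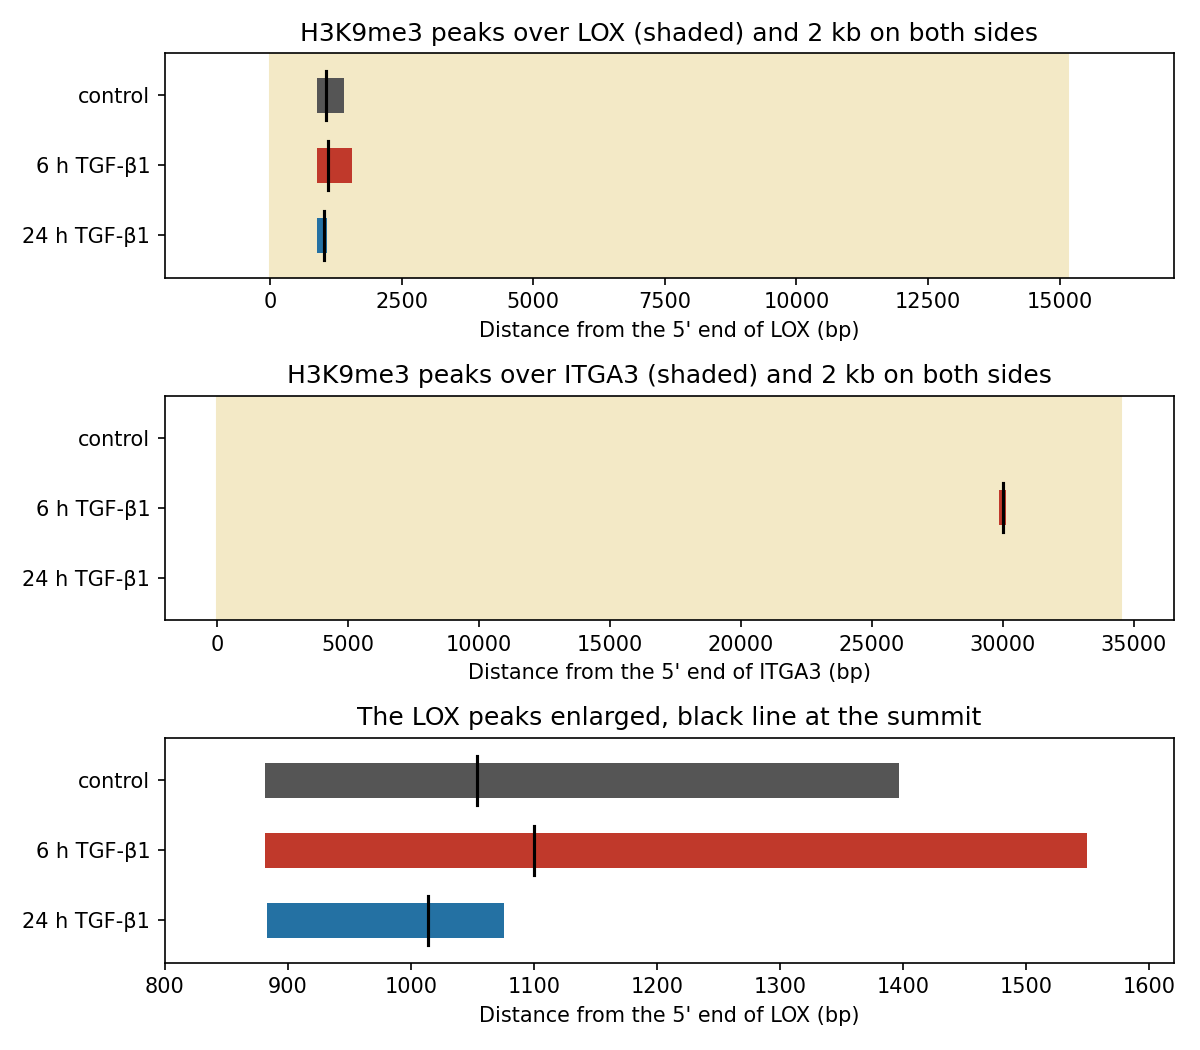
H3K9me3 peaks as bars, by list, at their distance in bp from the 5′ end of LOX (top, and enlarged at the bottom) and of ITGA3 (middle), with the gene interval shaded and the summit as a black line. The 3 LOX peaks begin 881 to 883 bp from the 5′ end and differ in how far they reach into the gene, while ITGA3 has 1 peak, at 6 h, near its 3′ end.

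The tolerance of 2 bp is the spread seen at LOX itself, so the count that follows describes the lists and supports nothing about LOX. Of the 36 merged regions that consisted of exactly 1 peak from each list, 3 had an edge within 2 bp in all of them (8.33%), and the LOX region was 1 of these. The others lay on chromosome 2 from 92290387 to 92290790 and on chromosome 3 from 142281074 to 142281952. The cause of the shared edge at LOX was not tested.

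The authors' fold enrichment at the LOX summit, a linear ratio of ChIP fragments plus 1 to local background plus 1, was 5.05 in the control list, 17.2 in the 6 h list and 3.82 in the 24 h list. Within its list the LOX peak ranked 166 of 1334 control peaks by fold, 3 of 1220 peaks at 6 h and 71 of 272 after 24 h. The median fold of all peaks was 3.83, 4.10 and 3.09 in the respective lists. By fold the LOX peak was thus among the highest of the 6 h list, and it was above the median of the other lists too. Its −log10 q, the caller's significance after correction, was 5.17 in untreated cells, 43.4 at 6 h and 1.72 after 24 h, where the lowest values in those lists were 1.33, 1.31 and 1.38. By −log10 q it ranked 537 of 1334, 30 of 1220 and 258 of 272, so that at 24 h it lay close to the limit of the list. A fold is a value of its own list, and the folds of different lists do not measure a change of the mark.

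**Figure D2:**
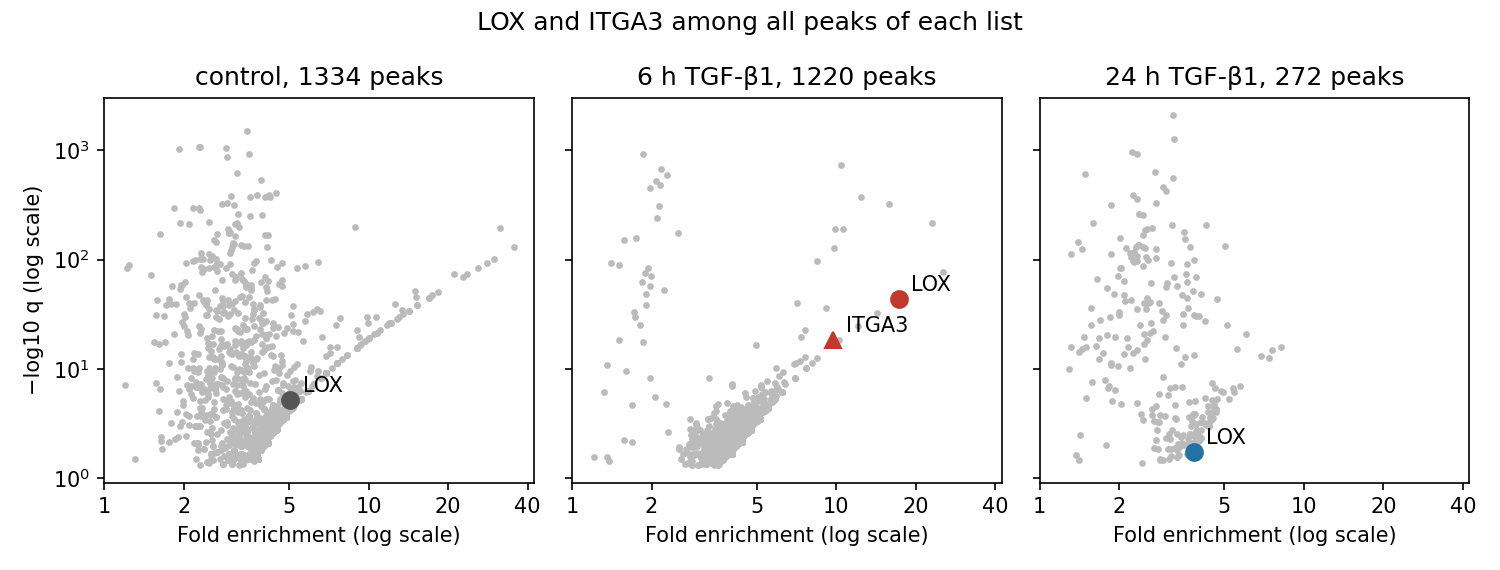
Fold enrichment (x, log scale) against −log10 q (y, log scale) of every peak in each list, with the peaks of LOX (circle) and ITGA3 (triangle) in colour. LOX has a fold of 17.2 at 6 h, rank 3 of the 1220 peaks there, and at 24 h it lies near the lower limit of the list in −log10 q, at 1.72.

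The number of ChIP fragments that covered the summit (the pileup) and the local background were solved from the caller's fold and −log10 p. MACS2 adds 1 to each before it forms the fold, so the plain ratio of pileup to background is larger than the fold. At LOX the control pileup was 17 fragments (exact Poisson 95% interval 9.9 to 27.2), the 6 h pileup 46 (33.7 to 61.4) and the 24 h pileup 13 (6.9 to 22.2). These intervals cover counting error only, and the fragments were not marked as separate molecules. A difference in processing is not covered either. Peak names mention filtered alignments in both treated lists and not in the control list. The control peak had a local background of 2.57 fragments, the 6 h peak 1.73 and the 24 h peak 2.66. In the control that was 1.36 times the lowest background of the list, taken as genome-wide, and in the treated lists it equalled it. The higher fold at 6 h therefore went with more fragments at the summit. At 6 h the background was also lower in fragments. Its values of 1.73 at 6 h and 2.66 at 24 h were the lowest of those lists. They belong to the whole list and are not particular to LOX.

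The total reads of the libraries are not part of the lists, so the genome-wide background served as the scale. In multiples of it the LOX pileup was 9.01 for the control (5.25 to 14.4), 26.7 at 6 h (19.5 to 35.6) and 4.88 after 24 h (2.6 to 8.35). These values come from the same columns that chose LOX and are a description of 3 libraries, not a test of the conditions. In each list the comparison set was the peaks with a local background within 1.5 times the genome-wide one. The LOX pileup ranked 70 of 543 such control peaks, 2 of 652 at 6 h and 57 of 58 after 24 h. Peaks with equal pileups shared a rank, and the 24 h rank was a tie for last between 2 peaks. At 24 h its 13 fragments equalled the lowest pileup called at the genome-wide background in that list. No 24 h peak at that background was listed with fewer fragments.

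**Figure D3:**
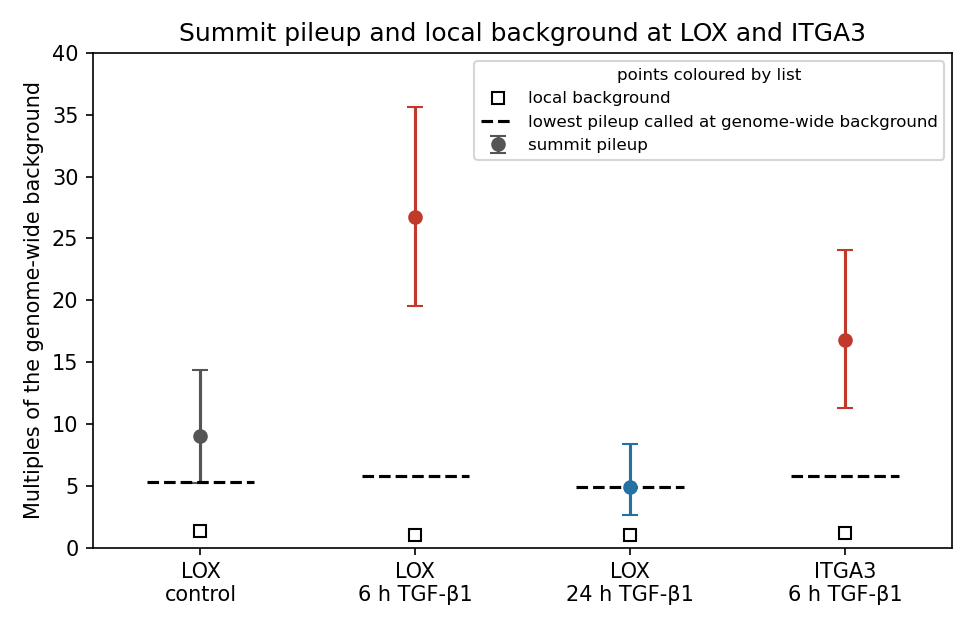
Summit pileup (filled points with exact Poisson 95% intervals), local background (open squares) and the lowest pileup called at the genome-wide background of the list (dashed), all as multiples of that background, for the LOX peak of each list and the ITGA3 peak at 6 h. LOX stands at 9.01 for the control, 26.7 at 6 h and 4.88 after 24 h, where it sits on the dashed line, and ITGA3 stands at 16.8.

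Joining overlapping peaks gave 2614 merged regions, of which 42 had a peak in every list (1.61%, exact binomial 95% interval 1.16 to 2.17), the LOX region among them. The interval takes regions as independent. Several of the 42 lie close together, as on chromosomes 10 and 16, so it may be too narrow. Of 161508 adjoining stretches of the genome as long as the LOX window, assembly gaps included, 28 held a peak of every list (0.0173%) and 2157 held a peak of any list (1.34%). In 7 of the 42 regions (16.7%) the fold was highest at 6 h, as at LOX. By fold within the 6 h list, LOX ranked 2 of the 42. Since LOX was picked on its folds, these shares are given beside it and nothing is read from them.

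The local background at LOX can be set beside that of the other regions common to all lists, as a description. The pileup came out whole in every list for 20 of the 42. Among these, 1 of 20 (5.00%), the LOX region, had a local background within 1.5 times the genome-wide one in each list. That limit was chosen with the value of 1.36 at LOX known, and the background derives from the columns that chose LOX. Over the other regions the local background had a median of 68.7 (control list), 94.5 (6 h list) and 82.6 (24 h list) in multiples of the genome-wide level. It came as low as 2.38 for the control, and down to the genome-wide level in both treated lists, at the chromosome 3 region named above. The remaining 22 regions lacked a whole pileup in at least 1 list and were left out of this comparison.

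**Figure D4:**
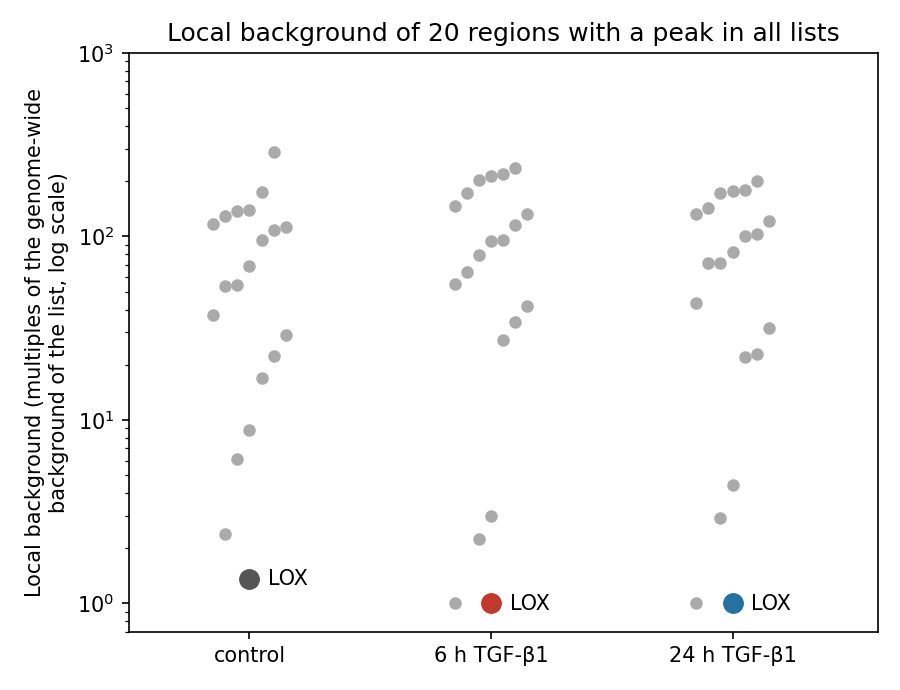
Local background of the 20 regions with a peak in every list and a whole pileup in each (points), by list, in multiples of the genome-wide background of the list (log scale), with LOX in colour. LOX lies at 1.36 for the control and at 1.00 in both treated lists, below the other regions in the control and level with 1 of them in the treated lists.

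No list had another peak within 4.70 Mb of LOX, on a chromosome with 83 peaks in the control list and 102 in the 6 h list. How usual such distances are in these lists was not computed. In the control list the nearest other peaks lay 5.96 Mb below and 5.95 Mb above the gene, with folds of 2.67 and 4.11. In the 6 h list they lay 5.96 Mb below and 4.70 Mb above, with folds of 8.45 and 4.45. In the 24 h list, which has 21 peaks on chromosome 5, they lay 17.98 Mb and 40.18 Mb away, with folds of 3.79 and 5.73. On the assembly of the RefSeq table, SRFBP1 overlaps LOX and ZNF474 is the next protein-coding gene after it. Whether the peaks also fall within SRFBP1 on hg19 was not determined.

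Likeness to LOX was measured as the distance between log2 folds over the 3 lists, among the 41 other regions with a peak in each. The nearest was chromosome 11 from 65266560 to 65271509, with folds of 2.88, 7.59 and 2.80 (control, 6 h, 24 h) at a distance of 1.5. Its pileups were 50, 46 and 35 fragments on local backgrounds of 8.84, 3.01 and 4.45 times the genome-wide one. The second was chromosome 11 from 5247807 to 5248326, with folds of 2.03, 10.4 and 2.34 at a distance of 1.66. Next came chromosome 11 from 65190314 to 65191099, with similar folds in all lists (5.74, 5.93 and 6.05; distance 1.69). After it came chromosome 16 from 226711 to 227519 (1.54, 10.6 and 2.54; distance 1.94). The last of the 5 was chromosome 3 from 142281074 to 142281952, where the control fold was the highest (31.3, 25.3 and 7.37; distance 2.85). Each of these had a local background of over 1.5 times the genome-wide level in the control list or was without a whole pileup there.

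ITGA3 had a single peak, from 48163177 to 48163447 (271 bp) in the 6 h list. Taking the gene on the plus strand, the summit lay 30011 bases from the 5′ end, or 86.9% of the way along, and the peak ended 4402 bases before the 3′ end. The peak was therefore near the other end of the gene from where the LOX peaks lay in theirs. Its fold was 9.74, rank 14 of 1220 in the list, and its −log10 q was 18.4, rank 42. The pileup was 29 fragments (19.4 to 41.6) on a local background of 2.08, which was 1.21 times the genome-wide one. In multiples of the genome-wide background the pileup was 16.8 (11.3 to 24.1), and it ranked 6 of 652 among 6 h peaks with a local background within 1.5 times that level.

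For peaks of the 6 h list, absence from the other lists was the common case. Of the 2614 merged regions, 1152 were in the 6 h list alone (44.1%), and that list held 1220 peaks in all. The 44.1% is a share of the regions of all lists, including those without a 6 h peak. It therefore understates how common this was among 6 h peaks. The regions in the 6 h list alone had a median fold of 4.11 and a median −log10 q of 2.33. Among these the ITGA3 region ranked 3 by fold and 4 by −log10 q. Of 80358 stretches of the genome as long as the ITGA3 window, 1133 held a 6 h peak (1.41%) and 1044 held a 6 h peak and none of the other lists (1.30%).

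The lack of an ITGA3 peak in the control and 24 h lists does not show that the signal there was 0. The lists report called peaks only. Among peaks with a local background of 1.1 to 1.4 times the genome-wide one, the lowest pileup called was 11 fragments in the control and 14 at 24 h, or 5.83 and 5.26 times the genome-wide background. If the background at ITGA3 was in that range, a summit below about those levels would have gone unlisted. The local background at ITGA3 in the control and at 24 h is not known from the lists. No bound on the signal there, and no comparison with the 16.8 times seen at 6 h, follows from these levels.

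Around ITGA3 the nearest 6 h peaks lay 1.77 Mb below and 4.93 Mb above the gene, with folds of 5.33 and 3.65. The control list had a peak 0.18 Mb above the gene, from 48350470 to 48350725, with a fold of 4.52. Its nearest peak below the gene lay 2.69 Mb away. The 24 h list, with 8 peaks on chromosome 17, had its nearest peak 13.02 Mb away. On the assembly of the RefSeq table, DLX3 and PDK2 are the protein-coding genes on either side of ITGA3. No promoter sequence is shown for ITGA3.

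Among the 1151 other regions found in the 6 h list alone, those with a fold closest to that of ITGA3 were on chromosome 4 from 73321838 to 73322069 (fold 8.44) and chromosome 2 from 221410943 to 221411183 (12.1). The next were chromosome 1 from 153362563 to 153363010 (7.70), chromosome 1 from 184943909 to 184944131 (7.60) and chromosome 11 from 65271818 to 65273487 (7.35). Their pileups were 22, 32, 20, 26 and 41 fragments in that order, and their local backgrounds were 1.00, 1.00, 1.00, 1.48 and 2.73 times the genome-wide one. Likeness here rests on a single fold in 1 list.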

How the data were processed

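Peaks were called separately in each ChIP library, and the authors' deposited lists have 10 columns and no header. Per the submitters' processing notes, the peak caller was MACS2 2.1.1.20160309 and the build was hg19, also written GRCh37. The notes also name BWA, Trimmomatic and FastQC 0.11.9. Their settings: not given in the sources used here. The deposited fold is a linear ratio at the summit, with 1 added to pileup and background as MACS2 does, −log10 p and −log10 q are the caller's, and the deposited score was, for all peaks, −log10 q multiplied by 10 and rounded down. Peak names in both treated lists, and not in the control list, carry a word for filtered alignments, so their processing may have differed. Each list was tied to the sample whose title its name holds.

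Peaks of the lists with at least 1 bp in common were merged into regions. Pileup and background were solved from each peak's fold and −log10 p with the Poisson tail that MACS2 uses (Python 3.11.15, NumPy 2.4.6, SciPy 1.17.1), a step tested on simulated peaks. Full recovery was required in that test only at low backgrounds, in the range of those at LOX and ITGA3. It was not required at high backgrounds, such as those of most other regions common to all lists. The pileup was whole within 0.01 of a step in 98.6% of control, 98.8% of 6 h and 89.7% of 24 h peaks. The lowest background of a list, 1.89, 1.73 and 2.66 fragments, was taken as genome-wide. Read totals are not in the lists, so precision is given by Poisson intervals of the pileup. The members, window, lists and tests were chosen with earlier results of these data known. Named peaks are all those in both windows, the nearest outside them on each side, and the 5 regions in the same lists with the smallest distance in log2 fold. The strand of ITGA3 and the chromosome lengths used to tile the genome came from general knowledge. The RefSeq tables are on GRCh38.p14 and no position was carried over, so the other TGF-β and matrix genes that had been listed were not placed on the peaks. Alternatives were other flanks, a −log10 q of at least 5, other overlap rules and another background.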

Additional observations from a re-analysis of the deposited data

How the results depend on the processing

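No paired analysis was possible because the groups share no second library, with 1 ChIP library each, and leaving out a library would leave a condition empty. When peaks under a −log10 q of 5 were dropped, the LOX window held 0 peaks at 24 h instead of 1, because that peak's −log10 q was 1.72. The other 28 of 29 alternatives left the peak counts at LOX and ITGA3 as they were, or moved a value by less than its counting interval or a count by less than 1.5 times. These included no flank, a flank of 10 kb and the 5th percentile as genome-wide background. The flanks could not change a count, because the peaks lay inside the genes and every other peak was at least 0.18 Mb away. The 5th percentile was 1.888 (control), 1.726 (6 h) and 2.675 (24 h) fragments, close to the lowest backgrounds of 1.89, 1.73 and 2.66. Little could change under these alternatives, so they are weak checks. Regions with a peak in every list numbered 42, and 41, 37 or 34 with an overlap of at least 50% of the shorter peak, with peaks within 1 kb joined, or without peaks under a −log10 q of 5. With the genome-wide background in place of the local one, an alternative chosen after seeing the data, the fold at LOX was 6.23 for the control, 17.2 at 6 h and 3.82 after 24 h, and at ITGA3 it was 11.0 at 6 h. Read totals are not in the lists, so the effect of depth was not tested. The lowest pileup called at the genome-wide background was 5.30 (control), 5.80 (6 h) and 4.88 (24 h) times that background, and LOX at 24 h lay at this limit.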
